A study of Mus musculus with 6 samples.

Results

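The clustered replication-dependent histone genes were examined in mouse chondrocytes of embryonic and adult knee cartilage. They were taken as every listed gene whose symbol begins with Hist1h, Hist2h, Hist3h or Hist4h, and 58 of the 22032 listed genes met this rule. Of these, 6 coded for the linker histone H1, 16 for H2A, 13 for H2B, 11 for H3 and 12 for H4. The Hist1 cluster on chromosome 13 held 46 of them, the Hist2 cluster on chromosome 3 held 9, the Hist3 cluster on chromosome 11 held 2 and the Hist4 locus on chromosome 6 held 1.

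RNA sequencing was performed on 6 samples of sorted cells, with 3 biological replicates per stage. The adult cells came from 2 month old male B6 animals and were CD31- CD45- Ter119- ALP- BMPR1B+, and the embryonic cells came from E16.5 embryos and were LIN- ALP- BMPR1B+, where LIN stands for blood and endothelial surface markers and ALP for alkaline phosphatase. BMPR1B is a bone morphogenetic protein receptor by which chondrocytes were enriched, and the labels name no engineered allele and no treatment. The strain of the embryos, their sex and the number of animals per sample are not given in the sources used here, and the labels write the embryonic stage in weeks where the methods of the study give embryonic day 16.5.

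Core histones H2A, H2B, H3 and H4 form the nucleosome, a tetramer of H3 and H4 flanked by dimers of H2A and H2B, and H1 binds the linker DNA where it enters and leaves. The clustered genes are made mainly in S phase, when new DNA must be packaged. Most lack introns, and their mRNA ends in a conserved stem-loop that is bound by SLBP, in place of a poly(A) tail, although some of these genes are known to be transcribed also as polyadenylated mRNA in cells that have left the cycle.

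The stem-loop is the feature that sets these transcripts apart from other mRNA, so it is shown here for 1 or 2 genes of each class. Each line gives the window of the GENCODE M21 transcript (GRCm38) around the stem-loop, 5′ to 3′, with the stem and its loop in capitals.
Hist1h1c: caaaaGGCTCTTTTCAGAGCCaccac
Hist1h2ac: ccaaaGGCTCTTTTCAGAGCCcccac
Hist2h2aa1: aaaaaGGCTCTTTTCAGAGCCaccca
Hist1h2bb: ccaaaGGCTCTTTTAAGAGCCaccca
Hist1h3c: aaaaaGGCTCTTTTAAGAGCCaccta
Hist1h3g: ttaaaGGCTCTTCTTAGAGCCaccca
Hist1h4d: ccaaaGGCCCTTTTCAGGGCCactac
Hist1h4b: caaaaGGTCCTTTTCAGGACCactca
A stem-loop was found in the transcript models of 41 members, none was found in 8, and the models of 9 held no sequence after the stop codon. All 30 stem-loops of H1, H2A, H2B and H3 genes opened with the letters GGCTC, whereas 10 of the 11 of H4 genes opened with GGCCC. In the last 200 bases of the transcript it stood in 24 of the 58 members and in 32 of 21901 protein coding genes, or 0.146%.

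Values were deposited as log2(TPM + 1), where TPM is a transcript level corrected for transcript length and scaled to the same total in every sample. They do not carry the read depth, so the precision of each value rests on how far the 3 samples of a stage lie apart. In bulk RNA, fewer cells of a type and less RNA per cell cannot be told apart, and a gene listed at 0 need not be absent. A zero beside at least 20 TPM in both other samples of the stage occurred for Hist2h2aa2 in embryonic chondrocytes and for Hist1h2ac in adult chondrocytes.

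Summed over all 58 genes, the histone signal was 13036, 15548 and 15408 TPM in embryonic chondrocytes and 4006, 3276 and 2534 TPM in adult chondrocytes. The means were 14664 ± 1412 and 3272 ± 736 TPM (SD, n = 3 each), a ratio of 4.48, and the stages did not overlap. The clustered histone genes thus made up 1.30% to 1.55% of the total TPM of an embryonic sample and 0.253% to 0.401% of that of an adult sample. A sum over genes depends less on how reads were divided among near-identical copies, and it is given as a description with no test.

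The classes were lower to very different extents. H3 went from 1224, 1599.7 and 1536 TPM to 139, 108 and 31.9 TPM, a ratio of means of 15.6. H2A, the class with the highest embryonic signal, was at 5956, 7149 and 6460.0 TPM and then at 883, 648 and 637 TPM, a ratio of 9.03. H4 was at 2057, 2525 and 2806 TPM in embryonic chondrocytes and at 379, 290.2 and 246 TPM in adult chondrocytes, a ratio of 8.07. The order continued with H2B and H1, the classes with the smallest difference. H2B was at 1415, 1685 and 1865 TPM against 588, 409 and 365 TPM, a ratio of 3.65. H1 was at 2385, 2588 and 2740.4 TPM against 2017, 1821 and 1255 TPM, a ratio of 1.51. In each of the 5 classes the highest adult sum lay below the lowest embryonic sum.

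**Figure D1:**
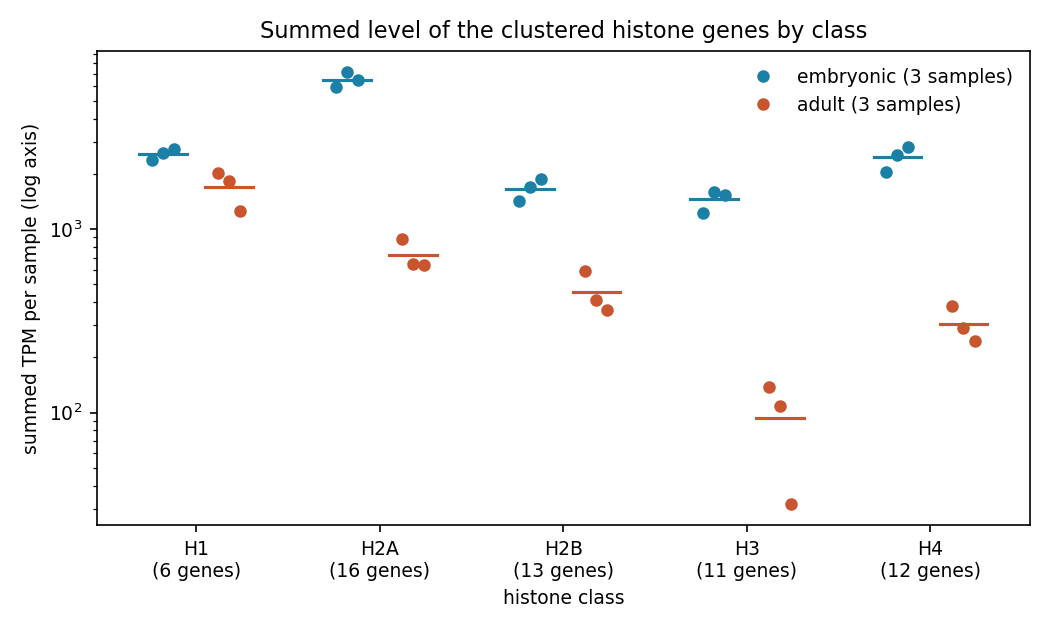
Summed TPM (log axis) of the clustered histone genes of each class, with 1 point per sample and a line at the mean of 3 samples. The adult points lie below the embryonic points in all 5 classes, with the widest gap in H3 (ratio of means 15.6) and the narrowest in H1 (1.51).

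The make-up of the histone signal therefore differed between the stages. H1 genes held 16.6% to 18.3% of the member signal in embryonic chondrocytes but 49.5% to 55.6% in adult chondrocytes. The share of H2A genes was 41.9% to 46.0% and then 19.8% to 25.1%, and that of H3 genes 9.39% to 10.3% and then 1.26% to 3.46%. H2B genes held a somewhat larger share in adult chondrocytes, 12.5% to 14.7% against 10.8% to 12.1%. For the core histones together, the ratio of the stage means was 7.68.

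**Figure D2:**
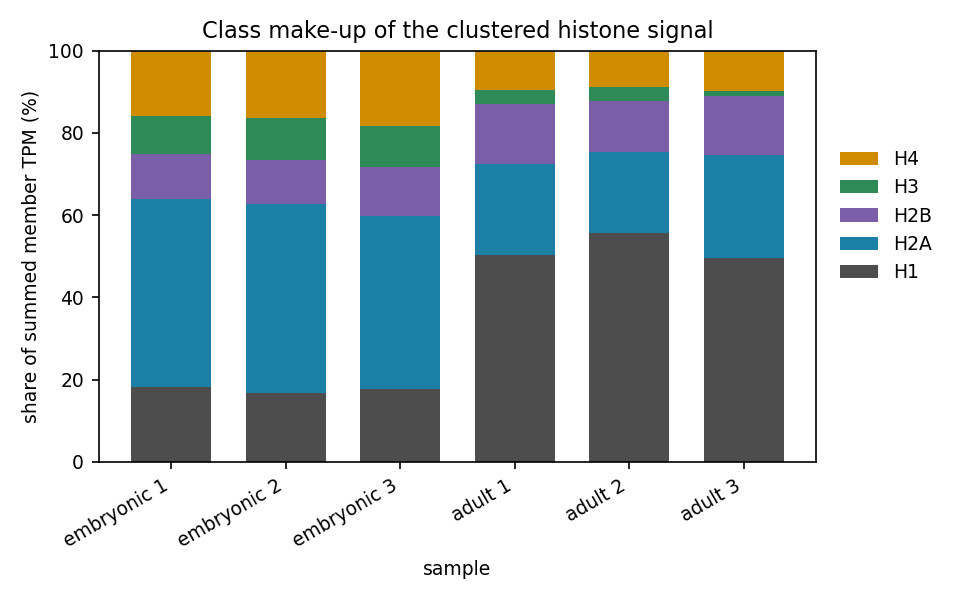
Share of the summed member TPM (percent, bars stacked to 100) held by each histone class in each of the 6 samples. H1 takes 49.5% to 55.6% of the bar in adult chondrocytes and 16.6% to 18.3% in embryonic chondrocytes.

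Gene by gene, the difference between the stages was tested with limma across the 13125 genes whose mean over the 6 samples reached 1 TPM, at a Benjamini-Hochberg adjusted p under 0.05. Of the 58 members 55 passed this filter on the mean and 42 of them fell in adult chondrocytes, against 21.4% of all genes tested. Another 2 rose, against 23.9% of all genes tested, and 11 did not pass the threshold. With no filter on low genes, 28 of the 58 members fell, and the share of all genes that fell in that fit is not given here. The members below the filter were Hist1h2aa and Hist1h2ba, testis-type variants, and Hist2h3c1. The median log2 fold change of the tested members was -3.83, and -3.78 without the 8 of them listed at 0 in all 3 adult samples, beside a median of 0.16 over all genes tested. A fold change on the log2(TPM + 1) scale understates the difference of genes with low levels.

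Over all 58 members, whether tested or not, the 3 adult values lay below the 3 embryonic values in 42, against 16.9% of all 22032 listed genes, and above them in 4, against 19.1%. The 4 were Hist1h1c and the H2B genes Hist1h2be, Hist1h2bq and Hist2h2be. In 50 members all 3 embryonic samples were above 0, but in adult chondrocytes 25 members were above 0 throughout, 22 were at 0 in 1 or more of the samples but not in all, and 11 were at 0 in all 3. Per sample, 4 to 7 members were listed at 0 in the embryonic and 21 to 24 in adult chondrocytes.

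**Figure D3:**
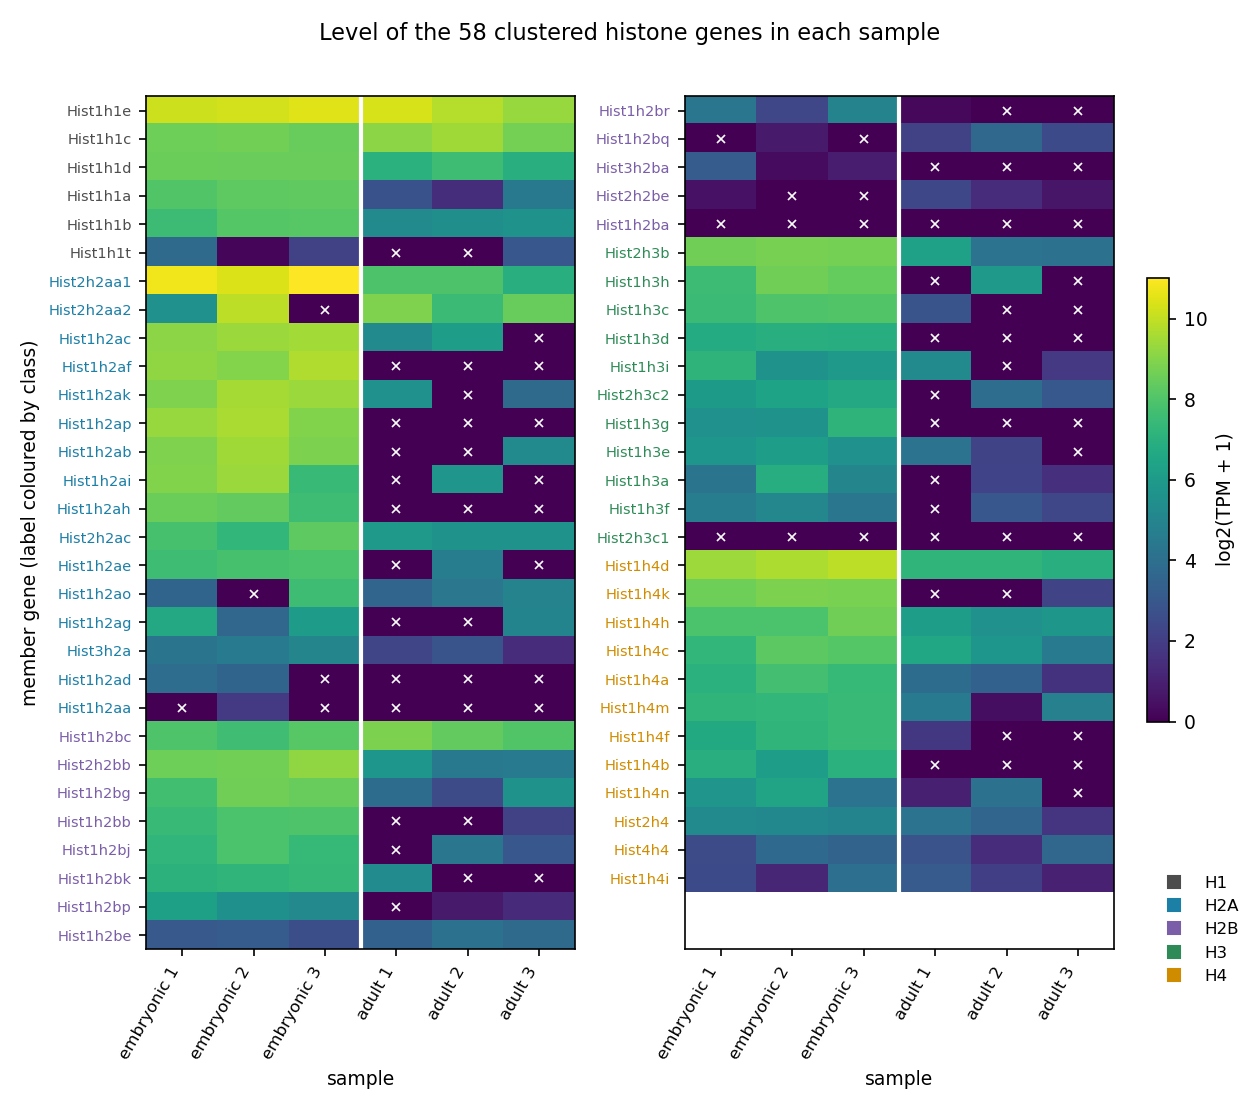
Level of each of the 58 members as log2(TPM + 1) (colour) in the 6 samples, ordered within each class by mean TPM, with gene names coloured by class and a white cross where a gene is listed at 0. Embryonic columns hold 4 to 7 crosses and adult columns 21 to 24, while Hist1h1e, Hist1h1c and Hist1h2bc stay bright across both stages.

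**Figure D4:**
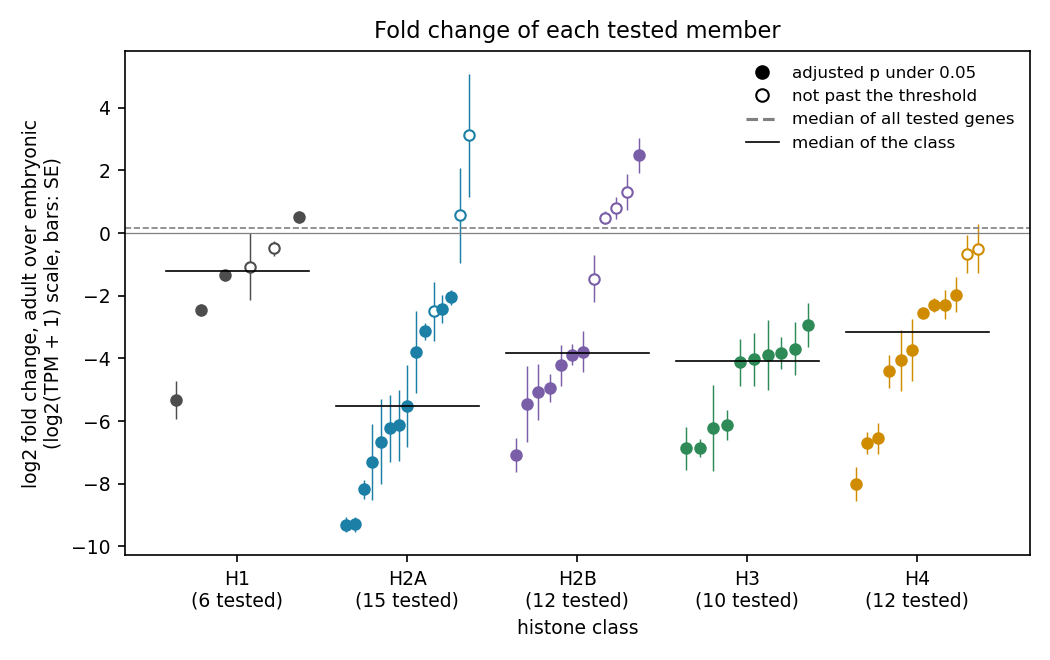
Log2 fold change of each of the 55 tested members, adult over embryonic, on the log2(TPM + 1) scale, with the limma standard error as a bar, filled points past the threshold and a line at the class median. All 10 tested H3 genes are filled and below 0, whereas the H1, H2A and H2B classes hold points on both sides of 0.

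Among the linker histones, Hist1h1e was the most abundant member of the class in all 6 samples. It stood at 1172, 1223 and 1422 TPM in embryonic chondrocytes and at 1291, 886 and 643 TPM in adult chondrocytes. The stages overlapped, and its log2 fold change of -0.49 ± 0.23 (SE) did not pass the threshold (adjusted p = 0.111). Without the first adult sample it was -0.75 with an adjusted p of 0.00904. Reads of Hist1h1e could also have been counted for Hist1h2be, whose exons overlap it on the same strand by 496 bases.

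Hist1h1c was the one H1 gene that rose. It was at 379, 412 and 353 TPM in embryonic chondrocytes and at 552, 697 and 416 TPM in adult chondrocytes. Every adult sample was above every embryonic one, with the third adult sample close to the second embryonic one. The log2 fold change was 0.51 ± 0.18 (SE), and the adjusted p of 0.0483 lay close under the threshold. The call was lost on leaving out any sample other than the third adult one, with adjusted p from 0.0836 to 0.148 in those fits, and in 9 of 13 alternatives in all.

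The other H1 genes that were tested past the threshold fell. Hist1h1d went from 368, 365 and 363 TPM to 129.6, 191 and 119 TPM, a log2 fold change of -1.34 ± 0.18 (SE, adjusted p = 0.000434). Named after their values were seen, Hist1h1a and Hist1h1b fell more steeply. Hist1h1a was at 263, 315 and 317 TPM and then at 5.87, 1.74 and 21.0 TPM, and Hist1h1b was at 188, 273 and 281 TPM and then at 37.7, 44.4 and 49.1 TPM. Hist1h1t, the testis-type H1, was at 13.1, 0.15 and 3.58 TPM in embryonic chondrocytes and at 0, 0 and 7.01 TPM in adult chondrocytes, without a call. Together, Hist1h1e and Hist1h1c made up most of the adult H1 signal, with shares of 48.7% to 64.0% for Hist1h1e and 27.4% to 38.3% for Hist1h1c, while the share of Hist1h1a was 11.0% to 12.2% in embryonic chondrocytes and 0.0954% to 1.67% in adult chondrocytes.

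In the H2A class 12 of 15 tested genes fell and none rose, with 3 not past the threshold. Hist2h2aa1, the most abundant, was at 1772, 1382 and 2081 TPM in embryonic chondrocytes and at 249, 243 and 121 TPM in adult chondrocytes. Its log2 fold change was -3.14 ± 0.28 (SE, adjusted p = 4.86e-05) and the stages did not overlap. Its coding sequence is identical to that of Hist2h2aa2, so the size of this fall depends on how reads were divided between the copies. Hist1h2ac fell from 549, 654 and 713 TPM to 37.0, 70.7 and 0 TPM, with a log2 fold change of -5.51 ± 1.30 (SE, adjusted p = 0.00867), with 1 adult value at 0. Without the filter on low genes its adjusted p was 0.105.

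Among the other H2A genes of the Hist1 cluster, zeros were frequent in the adult values. Hist1h2af, Hist1h2ah and Hist1h2ap were listed at 0 in all 3 adult samples, against embryonic values of 592, 499.9 and 848 TPM for Hist1h2af, 369, 329 and 195 TPM for Hist1h2ah and 644, 784 and 486 TPM for Hist1h2ap. These 3 genes, chosen after their values were seen, share most of their sequence with other members, so their zeros do not measure single genes.

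In the H2B class 7 of 12 tested genes fell, 1 rose and 4 did not pass the threshold. Hist2h2bb went from 382, 404 and 578 TPM to 53.8, 20.9 and 22.5 TPM, with a log2 fold change of -3.88 ± 0.34 (SE, adjusted p = 4.53e-05). Hist1h2bg went from 207, 393 and 349 TPM to 14.0, 4.72 and 50.2 TPM, with a log2 fold change of -4.22 ± 0.66 (SE, adjusted p = 0.0011). Neither gene had overlapping stages. Hist1h2bc behaved differently: it was at 252, 201 and 283 TPM in embryonic chondrocytes and at 464, 333 and 262 TPM in adult chondrocytes. The stages overlapped through the third adult sample, and the log2 fold change of 0.50 ± 0.22 (SE) did not pass the threshold (adjusted p = 0.0893), although without that sample it was 0.69 with an adjusted p of 0.0233.

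Hist1h2bc thus held 71.8% to 81.4% of the H2B signal in adult chondrocytes and 12.0% to 17.8% in embryonic chondrocytes. Without it, the other 12 H2B genes summed to 1163, 1484 and 1582 TPM in embryonic chondrocytes and to 124, 75.9 and 103 TPM in adult chondrocytes. The ratio of the means was then 14.0 in place of 3.65. Hist1h2bc was set apart for this sum after its values were seen.

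In the H3 class all 10 tested genes fell, and 10 of the 11 H3 genes were listed at 0 in at least 1 adult sample. Hist2h3b was the most abundant, at 395, 433 and 423 TPM in embryonic chondrocytes and at 78.6, 17.6 and 16.2 TPM in adult chondrocytes, a log2 fold change of -3.83 ± 0.50 (SE, adjusted p = 0.000412). Hist1h3h was at 188, 401 and 339 TPM and then at 0, 62.1 and 0 TPM. Hist1h3c was at 181, 251 and 258 TPM and then at 6.38, 0 and 0 TPM. Both passed the threshold with no overlap between the stages, Hist1h3h with an adjusted p of 0.00634 and Hist1h3c with 0.000102. Hist1h3h shares most of its sequence with other members, so its values do not measure a single gene. Without the filter on low genes, 5 H3 genes passed in place of 10, and Hist1h3h was not among them (adjusted p = 0.0879).

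In the H4 class 10 of 12 tested genes fell and none rose. Hist1h4d was the most abundant H4 gene in all 6 samples, at 673, 806 and 971 TPM in the embryonic and 146, 148 and 122 TPM in adult chondrocytes. Its log2 fold change was -2.54 ± 0.16 (SE, adjusted p = 7.84e-06). Hist1h4h, at 239.5, 239.3 and 391 TPM and then at 68.9, 46.2 and 55.7 TPM, fell by a similar amount, with a log2 fold change of -2.31 ± 0.23 (SE, adjusted p = 8.84e-05). Hist1h4k differed from both: it was at 382, 459.9 and 451 TPM in embryonic chondrocytes and at 0, 0 and 3.74 TPM in adult chondrocytes (adjusted p = 1.25e-05). Unlike Hist1h4d, it shares most of its sequence with other genes, so this contrast may not be one between single genes. Hist1h4d made up 31.9% to 34.6% of the embryonic and 38.5% to 50.9% of the adult H4 signal.

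Summed over all classes, the clusters differed less than the classes. The Hist1 cluster summed to 10088, 12049 and 11843 TPM in embryonic chondrocytes and to 3057, 2729 and 1948 TPM in adult chondrocytes, a ratio of 4.39, and 35 of its 44 tested genes fell. The Hist2 cluster summed to 2917, 3463 and 3522 TPM and then to 939, 539.8 and 573 TPM, a ratio of 4.83, and 6 of its 8 tested genes fell. Both clusters kept similar shares of the member signal, with the Hist2 share at 22.3% to 22.9% in the embryonic and 16.5% to 23.4% in adult chondrocytes. All H1 genes lie in the Hist1 cluster, so these sums mix classes. Within a class, the groups of near-identical genes differed more between the clusters. Near-identical H2A genes, summed, had a ratio of 33.7 in Hist1 and 3.89 in Hist2, and those of H3 19.7 and 11.2. Near-identical Hist1 H4 genes had 10.7 and Hist2h4 3.33, but Hist1h4d, the most abundant Hist1 H4 gene, stands outside this group with a ratio of 5.89. For H2B the order was reversed, with 2.85 in Hist1 and 14.0 for Hist2h2bb. That Hist1 value rests largely on Hist1h2bc, which did not fall. It held 464, 333 and 262 TPM of the adult group sums of 530.3, 386 and 342 TPM.

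The small loci were weakly expressed. Hist3h2a, an H2A gene, was at 17.7, 22.8 and 31.6 TPM and then at 3.89, 6.26 and 1.65 TPM, with a log2 fold change of -2.42 ± 0.44 (SE, adjusted p = 0.00227), and 708 of its 2146 exon bases are shared with Trim17 on the same strand. Hist3h2ba, its H2B neighbour, was at 8.15, 0.265 and 0.803 TPM in embryonic chondrocytes and listed at 0 in adult chondrocytes, without a call. Hist4h4, the H4 gene on chromosome 6, overlapped between the stages at 4.74, 12.5 and 10.4 TPM against 6.07, 1.61 and 11.3 TPM, with a log2 fold change of -0.65 ± 0.60 (SE, adjusted p = 0.403). The model of Hist4h4 extends 2445 bases past its stem-loop.

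Many of these genes cannot be told apart by 50-base reads. By alignment, 42 members fell into 6 groups whose coding sequences are at least 95% identical to another member along 90% or more of the length, and 16 members stood alone. In 31 members more than 50% of the 50-base windows of the transcripts occur in no other gene, in 8 members under 10%, and in 2 members, Hist2h2aa2 and Hist2h3c1, none. In GENCODE M21, 12 further genes of the clusters, 9 of them protein coding, are not among the listed genes, and whether their reads were counted for listed copies was not tested. RSEM divides shared reads by estimation, so the values of such genes depend on that step. Exons of 22 members also overlap another annotated gene. Those of Hist2h2bb and Hist2h3b lie wholly within Gm20628, those of Hist2h2aa1 within Gm20633 and those of Hist2h2aa2 within Gm20632, each on the opposite strand. On the same strand, Gm20634 overlaps 529 of the 586 exon bases of Hist2h2aa1 and all 1825 of Hist2h3c1. Gm42743 overlaps 226 of the 381 exon bases of Hist2h2bb, also on the same strand. Whether the reads kept the strand was not tested.

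Summed within the groups, the signal was lower in adult chondrocytes in all 6, by ratios that differed widely. The 11 Hist1 H2A genes together were at 3898, 4615 and 4038 TPM in embryonic chondrocytes and at 94.7, 167 and 110.3 TPM in adult chondrocytes, a ratio of means of 33.7. The 9 Hist1 H2B genes were at 1024, 1281 and 1286 TPM against 530.3, 386 and 342 TPM, a ratio of 2.85. For the 8 Hist1 H3 genes the ratio was 19.7 and for the 9 Hist1 H4 genes 10.7. The Hist2 group of Hist2h2aa1, Hist2h2aa2 and Hist2h2ac was at 2040.2, 2509 and 2391 TPM and then at 785, 474 and 525 TPM, a ratio of 3.89. With each group entered as a single feature, all 6 groups fell by limma and 13 of the 19 resulting histone features fell in all. Their median log2 fold change was -1.99, smaller than that of the single genes.

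In 4 pairs the coding sequences were identical. Hist2h2aa2 was at 47.0, 971 and 0 TPM in embryonic chondrocytes and at 474, 184 and 354 TPM in adult chondrocytes, and its log2 fold change of 3.13 ± 1.96 (SE) did not pass the threshold (adjusted p = 0.222). Without the third embryonic sample it was 0.54, and without the second it was 5.51 and passed (adjusted p = 0.0222). Summed with its copy Hist2h2aa1, the pair stood at 1819, 2353 and 2081 TPM and then at 723, 427 and 476 TPM. The spread among the embryonic samples was thus far smaller in the sum than in Hist2h2aa2 alone, and the stages no longer overlapped. The ratio of means was 3.85 for the pair and 8.54 for Hist2h2aa1 alone, so the larger fall of Hist2h2aa1 is uncertain as well. In the adult samples the pair supplied most of the H2A signal, with Hist2h2aa2 at 28.4% to 55.7% and Hist2h2aa1 at 19.0% to 37.5%.

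Hist1h2bq, the H2B gene that rose, belongs to another such pair. It was at 0, 0.754 and 0 TPM in embryonic chondrocytes and at 3.34, 11.8 and 4.49 TPM in adult chondrocytes, with an adjusted p of 0.00674. Its copy Hist1h2br, named after its values were seen, moved in the opposite direction, from 19.0, 4.05 and 29.5 TPM to 0.191, 0 and 0 TPM (adjusted p = 0.00194). The sum of the pair was 19.0, 4.81 and 29.5 TPM against 3.53, 11.8 and 4.49 TPM, with overlapping stages. In Hist1h2bq 2.68% of the windows occur in no other gene. The rise of Hist1h2bq is therefore uncertain, since reads of either copy could be counted for the other.

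**Figure D5:**
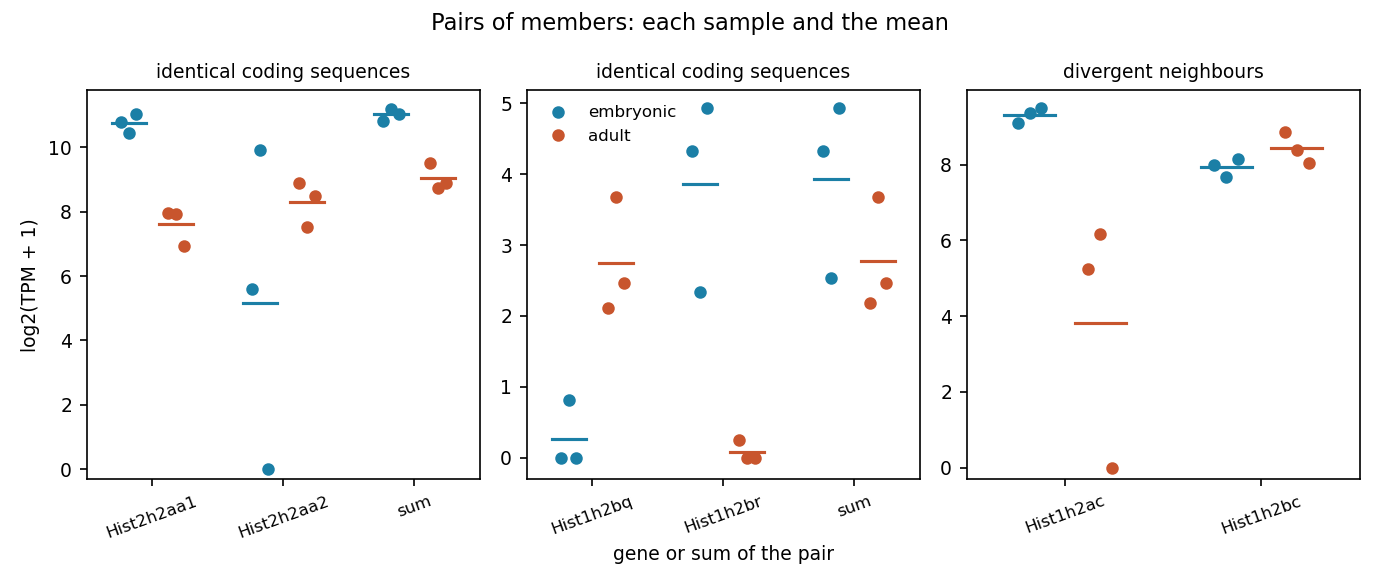
Levels as log2(TPM + 1) of pairs of members in each sample, with lines at the stage means of the log2 values, for Hist2h2aa1 with Hist2h2aa2, for Hist1h2bq with Hist1h2br (each also summed) and for the divergent neighbours Hist1h2ac and Hist1h2bc. The stages overlap in Hist2h2aa2 but not in its sum with Hist2h2aa1, the opposite shifts of Hist1h2bq and Hist1h2br leave a sum with overlapping stages, and Hist1h2ac drops while Hist1h2bc does not.

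Genes of H2A and H2B often lie head to head and share the region between their starts. Among the members there were 8 such pairs, with 175 to 305 bases between the starts. Both genes fell in 4 pairs, 1 of them fell in 2 pairs and neither fell in 2. Of the last 2, Hist1h2ba and Hist1h2aa were not tested. In the other, Hist1h2bq and Hist1h2ao have coding sequences identical to those of Hist1h2br and Hist1h2ap, a pair where both fell. The pairs are therefore not all separate observations. The pair with the highest levels among those where the partners differed was Hist1h2ac (chr13:23681467-23683948, minus strand) and Hist1h2bc (chr13:23684199-23692908, plus strand), with 250 bases between them. As given above, Hist1h2ac fell to 37.0, 70.7 and 0 TPM, while Hist1h2bc was at 464, 333 and 262 TPM in the same adult samples. In the Hist2 cluster, Hist2h2ac fell from 221, 156 and 309.5 TPM to 61.6, 47.5 and 49.2 TPM, and its neighbour Hist2h2be was at 0.467, 0 and 0 TPM and then at 4.26, 1.67 and 0.571 TPM without a call (adjusted p = 0.0968). This pair was named after its values were seen.

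Since Hist1h2ac and Hist1h2bc differed over a shared region, the RefSeq promoter of Hist1h2ac is shown, which spans that region. It covers chr13:23683910-23684209 of GRCm38.p6 on the minus strand, from 250 bases before to 50 after the start, with matches on either strand to the octamer ATTTGCAT, to CCAAT and to TATAAA in capitals.
Hist1h2ac: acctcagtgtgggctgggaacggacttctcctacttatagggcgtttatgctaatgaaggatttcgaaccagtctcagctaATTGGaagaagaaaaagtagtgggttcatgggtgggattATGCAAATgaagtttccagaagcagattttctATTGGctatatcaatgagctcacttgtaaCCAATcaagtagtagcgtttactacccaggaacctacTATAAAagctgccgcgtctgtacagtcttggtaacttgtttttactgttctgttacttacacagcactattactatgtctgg
A promoter was matched by RefSeq symbol for 53 members, and none was matched for Hist1h2bc, Hist1h3a, Hist1h3f, Hist2h2be and Hist2h4. The octamer stood in 7 of 16 H2A and 5 of 11 H2B promoters and in none of the H1, H3 and H4 promoters, against 1.74% of 32851 mouse promoters of this length. These are not all separate sites, since head-to-head neighbours share the region. Hist1h2ae with Hist1h2bg, Hist1h2ah with Hist1h2bk and Hist1h2aa with Hist1h2ba each hold the same octamer, counted for both genes. CCAAT stood in all matched H1, H2A, H2B and H3 promoters and in 3 of 11 H4 promoters, against 37.4% of all, and TATAAA in 29 of the 53, against 13.6% of all. A match describes letters in the window and not a bound site.

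The H1 promoters share another short run, AAACACA, found in 5 of the 6 on either strand and in 7.18% of all promoters. It is shown for Hist1h1c, the H1 gene that rose, on the plus strand of chr13:23738557-23738856, with this run and CCAAT in capitals.
Hist1h1c: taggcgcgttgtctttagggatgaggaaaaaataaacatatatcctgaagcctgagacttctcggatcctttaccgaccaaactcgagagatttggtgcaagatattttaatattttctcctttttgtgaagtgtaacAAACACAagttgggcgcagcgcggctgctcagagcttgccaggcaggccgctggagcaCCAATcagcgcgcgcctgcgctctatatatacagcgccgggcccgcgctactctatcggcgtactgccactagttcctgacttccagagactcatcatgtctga
Hist1h1d and Hist1h1b, which fell, and Hist1h1e and Hist1h1t hold the run as well, and Hist1h1a, which fell most on the log2 scale among the H1 genes, does not. The run did not separate the H1 genes by their direction.

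Transcript models differ in how far they extend past the stem-loop. In 21 members a model runs at least 100 bases beyond it, and of these 13 fell, 1 rose, 6 did not pass the threshold and 1 was not tested. The other 37 members include the 8 with no stem-loop found and the 9 with no sequence after the stop codon. They are therefore not all models that end near a stem-loop, and some of them are spliced. Of these 37 members, 29 fell, 1 rose, 5 did not pass and 2 were not tested. The median log2 fold change of the tested members was -2.35 among the 21 and -4.13 among the other 37. A split by shared sequence gave similar medians. They were -2.42 for the 31 members with more than 50% of their windows in no other gene and -4.04 for the other 27. These splits overlap, and their parts in the difference were not tested. Among the 5 members with the highest adult level, the models of Hist1h1e and Hist1h1c run 1153 and 840 bases past the stem-loop, and Hist1h2bc has a model of 2 exons. The other two, Hist2h2aa1 and Hist2h2aa2, end 35 bases past it. These 5 genes held 70.9% to 75.7% of the adult and 26.9% to 27.8% of the embryonic member signal, and were chosen by that adult level. The values are per gene and do not tell transcript ends apart, and the models are those of GENCODE M21, not the RefSeq models that the authors used.

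Histone variants coded outside the clusters were read from a list of 11 genes. Most of them are known to be made independently of replication with poly(A) tails, whereas H2afx is known to be made in a stem-loop form as well. Of these 7 fell, 2 rose and 2 did not pass the threshold, with a median log2 fold change of -0.55. The 2 that rose were H1f0, the linker variant known from differentiated cells, at 82.3, 68.1 and 65.0 TPM against 152, 228 and 187 TPM, and H2afj, at 34.7, 53.7 and 38.9 TPM against 137, 121 and 83.4 TPM. The largest falls were those of the linker variant H1fx, from 52.1, 76.5 and 72.5 TPM to 8.84, 8.98 and 4.86 TPM, and of Cenpa, the centromeric H3, from 51.1, 68.2 and 86.8 TPM to 2.63, 6.72 and 29.5 TPM, the latter call lost without the filter on low genes (adjusted p = 0.0879). Summed, the list was at 2657 to 2843 TPM in the embryonic and 1811 to 1900.5 TPM in adult chondrocytes. The adult samples thus held a summed level of these variants above that of the clustered core histone genes in 2 of 3 samples, which was at 1989.5, 1455 and 1279 TPM. The sets are unlike, since the variant sum includes the linker variants H1f0 and H1fx and the core sum leaves out H1. All clustered members together, at 4006, 3276 and 2534 TPM, lay above the variants in every adult sample.

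Factors that transcribe the clusters or process the stem-loop mRNA were read from a list of 18 genes. Of these 15 did not pass the threshold, 1 fell and 2 rose, with a median log2 fold change of 0.02. Npat, the coactivator of the histone clusters, fell from 32.7, 27.3 and 26.2 TPM to 17.0, 21.0 and 11.3 TPM (adjusted p = 0.0398), a call lost in 8 of 13 alternatives. Cpsf3, the nuclease that cuts the pre-mRNA, rose from 27.4, 19.7 and 34.9 TPM to 49.2, 45.3 and 48.3 TPM (adjusted p = 0.0195), a call lost in 3 of 13 alternatives, and Sympk, a scaffold of the cleavage complex, rose from 71.3, 69.7 and 89.7 TPM to 125, 128 and 121 TPM (adjusted p = 0.00504). Slbp itself, named outside the rule for its role, was at 169, 176 and 159.8 TPM against 110.3, 139.9 and 148 TPM, without a call (adjusted p = 0.0802).

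Among 20 histone chaperones and assembly factors 8 fell, 1 rose and 11 did not pass the threshold, with a median log2 fold change of -0.33. The largest falls were those of Nasp, a chaperone of H3, H4 and H1, from 389, 343 and 399 TPM to 120.3, 119 and 60.5 TPM (adjusted p = 0.000343), and of Asf1b, from 60.7, 21.6 and 40.0 TPM to 13.9, 12.6 and 4.31 TPM (adjusted p = 0.0115), a call lost in 2 of 13 alternatives. Cabin1, a subunit of the HIRA complex that deposits H3.3, rose from 12.9, 12.7 and 8.35 TPM to 26.0, 22.5 and 24.7 TPM (adjusted p = 0.0115).

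Of 20 S phase genes 18 fell, none rose and 2 did not pass the threshold, with a median log2 fold change of -1.62. Ccne1, the cyclin that drives entry into S phase, went from 111, 84.3 and 112 TPM to 2.20, 16.9 and 0.487 TPM (adjusted p = 0.00148), and Ccna2 from 73.7, 79.1 and 84.3 TPM to 3.53, 3.22 and 9.57 TPM (adjusted p = 7.52e-05). Their summed level was 1334 to 1548 TPM in the embryonic and 517 to 565 TPM in adult chondrocytes, with none of the 20 at 0 in any sample. S phase genes thus moved with the clustered histone genes, and their part in the result was not tested.

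Markers of cell types were read to check the samples. The chondrocyte markers were present in all 6 samples, summing to 21591 to 23322 TPM in the embryonic and 9324 to 12322 TPM in adult chondrocytes, with 4 of 7 lower, 2 higher and none at 0. Fibroblast and tendon markers moved with the histone genes, at 10058 to 11792 TPM and then 593 to 1346 TPM, with 5 of 6 lower and Tnmd and Scx at 0 in 1 or 2 adult samples. Osteoblast markers were at 40.8 to 72.6 TPM and then 268 to 417 TPM, with 2 of 5 higher, 1 lower and Bglap at 0 in all 3 embryonic samples, and leukocyte markers at 5.15 to 13.7 TPM and then 17.9 to 74.5 TPM, with 1 of 3 tested higher and Cd3e at 0 throughout. Ibsp, at 316, 235 and 308 TPM, made up most of the adult osteoblast sum. Muscle markers were at 47.2 to 64.9 TPM and then 1.25 to 8.83 TPM, with 1 of 4 tested lower and Pax7 and Myog at 0 in adult chondrocytes. The lower one was Des, which at 49.3, 50.6 and 46.0 TPM made up most of the embryonic muscle sum. Endothelial markers were at 12.8 to 27.9 TPM and 6.14 to 15.2 TPM, with 1 of 3 tested lower, and erythroid markers at 0.31 to 133 TPM and 3.13 to 33.8 TPM, with none of 3 tested past the threshold. The part of these other markers in the histone result was not tested.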

How the data were processed

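RNA-seq of 3 embryonic and 3 adult samples was used. The authors mapped single-end 50-base reads to GRCm38 with RefSeq annotations, estimated levels with RSEM (version not given in the sources used here) and deposited log2(TPM + 1) per gene. By the methods, cDNA was primed with random and poly(T) primers, but the labels give a kit for mRNA (Kapa mRNA-Seq). The library kit, the RNA fraction captured and the way reads are split among copies can all affect the level of mRNA without a poly(A) tail. All columns were used. Read depth was not used here, so no counting interval is given.

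Gene identifiers were matched to symbols of GENCODE M21, with 21902 matched and 130 unmatched, and 12 of the 70 annotated symbols of the clusters are not among the rows, so their reads may have been counted for near-identical members or for none. Genes whose mean reached 1 TPM entered a linear model of the deposited log2 values (pseudocount 1) with stage as its single term. It was fitted by lmFit and eBayes with trend in limma (version 3.58.1, R 4.3.3), and p-values were adjusted by Benjamini-Hochberg over all genes tested. EBSeq, named by the methods, needs counts and was not used. The labels call the samples biological replicates but do not tie them to animals. Sums, shares and ratios of summed TPM are descriptions. Coding sequences were aligned with BLAST+ 2.17.0, and promoters are those of RefSeq. Python 3.11.15 with pandas 2.3.3, numpy 2.4.6 and, for plots, matplotlib 3.10.9 was used for all other steps.

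The members and lists were chosen with earlier results of these data known. The genes named were, in each class, the 3 with the highest mean, every member that rose, the 5 highest in the adult samples, the 3 highest without a call, every member of Hist3 and Hist4, and in each of the first 4 lists the 2 largest rises and the 2 largest falls. Others are said to be chosen after their values were seen.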

Additional observations from a re-analysis of the deposited data

How the results depend on the processing

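Results were recomputed with a pseudocount of 0.1, with no filter or one at 5 TPM, with median-of-ratios scaling, with TPM rescaled after removal of the 20 highest genes, with eBayes without trend, with a replicate block, at an adjusted p under 0.01, with near-identical members summed and without 1 sample at a time. The number of members that fell was 42 in the main analysis and 38 to 42 on leaving out 1 sample. It was 28 without the filter and 13 of 19 features with near-identical members summed, a setting that tests fewer features. Shares over all genes are given for the main fit only. The number that rose was 2, and 1 with a pseudocount of 0.1, without the filter, at 5 TPM, under median-of-ratios scaling, without trend, at 0.01 and with members summed. It was 1 to 4 on leaving out 1 sample, with 4 without the third adult sample. The median log2 fold change of -3.83 was -4.65 with a pseudocount of 0.1, -1.99 with members summed and -3.95 to -3.53 on leaving out 1 sample.

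By class, with near-identical members summed the features that fell were 3 in H2A, 2 in H2B, 2 in H3 and 3 in H4, and 8 in the Hist1 cluster. Without the filter 5 fell in H3, 6 in H4 and 23 in Hist1, a change whose cause was not tested. The 1 rise in H1 became 0 with a pseudocount of 0.1, without the filter, under median-of-ratios scaling, without trend and at 0.01, and was 0 to 1 on leaving out 1 sample. The 1 rise in H2B became 0 at 5 TPM and with members summed and was 1 to 3 on leaving out 1 sample. In H2A and in Hist2 it was 0 to 1, and in Hist1 the 2 rises became 1 under the settings that gave 1 in all, and 1 to 3 on leaving out 1 sample.

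Among the lists, the 7 variants that fell became 3 without the filter, 4 without trend, 4 at 0.01 and 4 to 7 on leaving out 1 sample. Of the genes for histone mRNA, the 1 that fell became 0 without the filter, without the 20 highest genes, without trend, at 0.01 and 0 to 1 on leaving out 1 sample, and 3 under median-of-ratios scaling, and the 2 that rose became 1 without the filter and at 0.01 and 1 to 3 on leaving out 1 sample. Of the chaperones the 8 that fell became 5 at 0.01, and the 1 that rose became 2 without the 20 highest genes and 0 at 0.01. Over the 31 named genes with a test, 372 of 400 single values kept their direction and side of the threshold, 25 lost the call, 3 gained it and 0 changed sign. The median over all genes was 0.16 in the main analysis, 0.02 under median-of-ratios scaling and 0.25 without the 20 highest genes.

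For samples with the same replicate number, the correlations of their deviations from the stage means were -0.0088, -0.0169 and -0.0223. No pairing by number was seen, but with 3 samples per stage these values cannot show that such samples shared nothing else. With the replicate number as a block, 43 members fell and 2 rose. The precision of single members is limited by 3 samples per stage, and no read depth is carried in the values.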
